A study of Mus musculus with 4 samples.

Results

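Transcripts of the mitochondrial ribosomal protein genes were counted in single nuclei from the cerebral cortex of mice lacking the creatine transporter and of their wild-type littermates. The genes were taken by name: every symbol beginning with Mrpl or Mrps, for proteins of the large and the small subunit, followed by a number. This gave 78 of the 21933 genes counted, 49 Mrpl and 29 Mrps genes. All libraries came from the right cortex of male C57Bl/6J mice at postnatal day 100, with 1 animal per library and no treatment. CrT-KO mice (CrT-/y) carried a deletion of exons 5 to 7 of the X-linked Slc6a8 gene, which encodes the transporter, in every cell of the body, and controls were CrT+/y. Each genotype was represented by 2 libraries, so that p-values between genotypes from summed counts rest on the spread between 2 animals per group. Those between cell types rest on 4 libraries of both genotypes, with the library as a block.

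Mitochondria keep ribosomes of their own, which translate the few respiratory chain proteins encoded in the mitochondrial genome. All protein subunits of these ribosomes are encoded in the nucleus, made in the cytosol and imported, and they assemble on ribosomal RNA transcribed inside the mitochondrion. Many descend from bacterial ribosomal proteins, and others were added in the mitochondrial lineage. Creatine, taken up by the transporter, buffers ATP together with creatine kinases, and parvalbumin-expressing (PV) interneurons, which fire at high rates, are known for their rich supply of mitochondria.

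After removal of presumed doublets, 34458 of 35694 nuclei were kept and 30319 could be named from marker genes: 15342 excitatory neurons, 6222 inhibitory neurons, 5121 oligodendrocytes, 2232 microglia, 660 oligodendrocyte precursors, 490 astrocytes and 252 endothelial cells and pericytes. The 4 libraries held 51507483 to 65240843 unique molecular identifiers (UMIs), each counting 1 captured transcript molecule. The inhibitory class held 1274 PV-like nuclei and also 2146 nuclei with markers of striatal medium spiny neurons, 429 to 594 per library. A cluster of 469 nuclei, first named inhibitory, was led by mitochondrially encoded transcripts. Before the class was counted, 8 sub-clusters led by markers of other classes were taken out of it. All 22 microglial and all 18 oligodendrocyte markers found were highest in their own class, against 14 of 18 excitatory and 11 of 15 inhibitory markers. Slc6a8 had 315 and 289 UMIs in the named nuclei of the 2 control libraries and 89 and 71 in those of the CrT-KO libraries, and it fell by 1.94 on the log2 scale (SE 0.164, adjusted p = 0.0108, edgeR quasi-likelihood test).

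By the subunit their products belong to, 51 of the genes code for the large subunit and 26 for the small subunit. Mrps30 and Mrps18a, named for the small subunit, were counted with the large one, where their proteins sit. The remaining gene, Mrps36, codes for a protein now placed in the 2-oxoglutarate dehydrogenase complex, and it stayed in because the name rule takes it. A bacterial counterpart exists for 46 of the proteins, and 31 are specific to mitochondria.

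The proximal promoters were examined because these genes are often described as sharing binding motifs for nuclear respiratory factor 1 (NRF1), a regulator of nuclear genes for mitochondria, and for ETS family factors. RefSeq promoters of 300 bases, from 250 before to 50 after the transcription start on build GRCm38.p6, were found for 69 of the 78 genes and for 16758 genes of the files. The stretches shown, each with its motif in capitals and up to 20 bases on either side, belong to genes whose values are described further on. They are read 5′ to 3′ on the strand of the gene, and the distance is that of the first base from the start.
Mrpl10, chr11:97041428-97041475, plus strand, from -134, NRF1: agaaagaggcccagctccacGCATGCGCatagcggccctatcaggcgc
Mrpl33, chr5:31613919-31613950, plus strand, from -12, NRF1: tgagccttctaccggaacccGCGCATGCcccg
Mrpl43, chr19:45006472-45006518, minus strand, from -56, ETS: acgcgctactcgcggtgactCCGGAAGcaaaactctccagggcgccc
Mrpl48, chr7:100583138-100583184, minus strand, from -34, ETS: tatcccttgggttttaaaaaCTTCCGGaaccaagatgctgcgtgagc
Mrpl52, chr14:54426842-54426888, plus strand, from -47, ETS: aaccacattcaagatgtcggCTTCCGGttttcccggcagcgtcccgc
Mrps16, chr14:20393538-20393584, minus strand, from -74, ETS: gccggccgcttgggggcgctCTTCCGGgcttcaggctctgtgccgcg

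The motifs were searched as exact letters on both strands, CCGGAAG for ETS factors and GCGCATGC for NRF1, so that CTTCCGG and GCATGCGC in the stretches above are the same motifs read from the other strand. The ETS motif was present in promoters of 26 of the 69 genes (37.7%), against 13.2% of all genes with a promoter. NRF1 motifs were found in 8 (11.6%, all genes 4.10%), and AANATGGCG, a motif of the factor YY1, in 11 (15.9%, all genes 3.77%). At least 1 of these 3 motifs stood in the promoters of 37 of the 69 genes (53.6%), against 19.1% of all genes. Each of the 3 motifs holds the letters CG, and the median number of CG per 300 bases was 21 for these genes and 15 for all genes. The part of this difference in the motif shares was not tested. The GC box GGGCGG, bound by Sp1, was present in 34 (49.3%) and in 50.7% of all genes, the TATA motif TATAAA in 5 (7.25%) and in 14.5%, and AAGGTCA, the core motif of estrogen-related receptors, in 4 (5.80%) and in 4.61%. Promoters of cytosolic ribosomal protein genes, 64 of which were matched, held the ETS motif in 40.6% and the NRF1 motif in 4.69%, and those of 67 nuclear genes for respiratory chain subunits in 25.4% and 14.9%. These counts describe letters in a window, and no binding was measured.

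The genes together received 129213 UMIs, with a median of 1084 per gene over the 4 libraries. Large subunit genes received 78049 of these UMIs and small subunit genes 49165. The counts were uneven, and 5 genes held 28.6% of them: Mrpl48, Mrps9, Mrpl1, Mrps28 and Mrpl3. Mrpl48, a mitochondria-specific protein of the large subunit, had the most, 9609 UMIs. Its gene body, chr7:100545751-100608301 on the minus strand (GRCm38, GENCODE vM21), spans 62.551 kb and overlaps Rab6a on the other strand. The RefSeq start used for the promoter stretch above lies inside this longer gene body. The stretch shown for Mrpl33 also lies inside its counted gene body, chr5:31596935-31664384. So does that of Mrps16, near the 5′ end of chr14:20389304-20393634. Mrps9, a small subunit protein, had 9163 UMIs over 54.451 kb, and Mrps28, also of the small subunit, had 6161 over 121.773 kb. Mrpl1 and Mrpl3, both of the large subunit, had 7109 and 4856 UMIs.

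Reads were counted over the whole gene body, introns included, and the UMI count of a gene moved with the length of that body. Spearman's rho was 0.632 across the members and 0.612 across all genes, where genes share libraries and are not independent replicates. The genes were short, with a median gene body of 7.90 kb against 17.6 kb for all genes, and 67 were under 20 kb. Per kilobase of gene body, the median level was 0.751 CPM per kb (CPM, the UMIs of a gene scaled to the total UMIs of the library or population), against 0.282 over the 18531 genes detected. Among genes under 10 kb the medians were 0.844 CPM per kb for the members and 0.128 for all genes. Above 50 kb they were 0.363 for the 7 members and 0.496 for all genes. These 7 include Mrps6, with 2 UMIs, which shares its strand with another gene and cannot be fully counted. Of the others, Mrps9 (0.911), Mrpl48 (0.831) and Mrpl1 (0.673) lay above the median of all genes. Mrps27 (0.363), Mrps28 (0.274) and Mrpl33 (0.199) lay below it. The order of levels changed on this scale. Mrpl41, a large subunit protein encoded within 0.982 kb, was highest at 7.76 ± 0.599 CPM per kb (SD, n = 4), followed by Mrpl43 at 3.73 ± 0.512 and Mrpl52 at 2.61 ± 0.250, both mitochondria-specific proteins of the large subunit, then by Mrpl38 at 2.26 ± 0.184 and Mrpl4 at 1.85 ± 0.134, also of the large subunit. The first 3 intervals of mean ± SD did not touch one another. Large and small subunit genes had median levels of 0.764 and 0.694 CPM per kb.

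**Figure D1:**
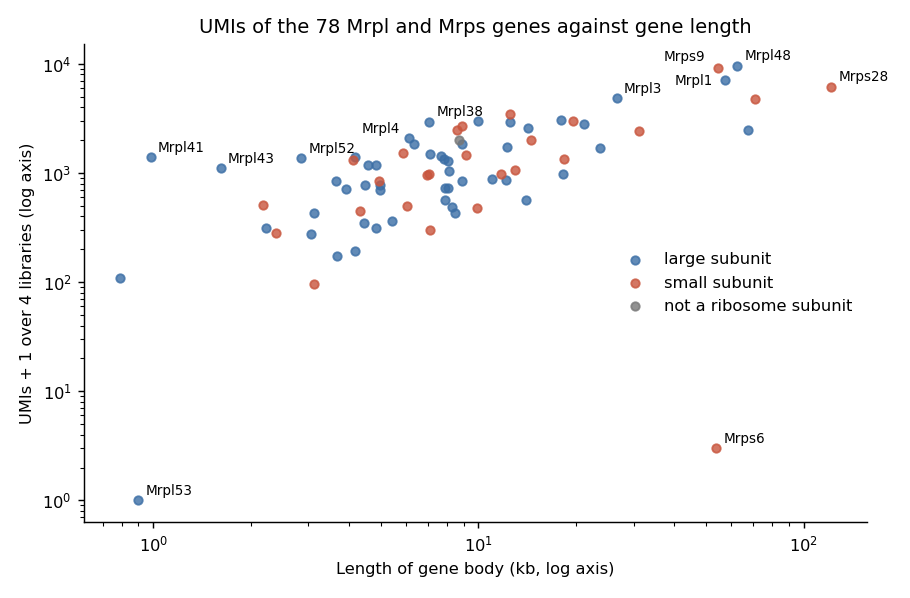
UMIs of each mitochondrial ribosomal protein gene over the 4 libraries, plus 1, against the length of its gene body in kb, both on log axes, with points coloured by subunit. Longer genes held more UMIs (Spearman's rho 0.632), and Mrpl48 with 9609 UMIs stood highest.

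Mrpl53 (chr6:83109040-83109939, plus strand) had 0 UMIs in all 4 libraries and Mrps6 had 2 in all. Both overlap another gene on the same strand, Gm42688 for Mrpl53 and Slc5a3 and Gm49711 for Mrps6, and reads shared by such genes are not counted for either. Mrps24 and Mrps34 also overlap a gene on the same strand, so that their levels are uncertain. A gene on the other strand is overlapped by 22 members, Mrps34 among them.

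In the cell types, the summed share of UMIs on the 78 genes was lowest in excitatory neurons. Excitatory neurons had 0.0658 ± 0.00311% of their UMIs on these genes (SD, n = 4 libraries, both genotypes), inhibitory neurons 0.0755 ± 0.00311%, oligodendrocyte precursors 0.0779 ± 0.00739%, oligodendrocytes 0.0948 ± 0.00158%, astrocytes 0.101 ± 0.00619%, endothelial cells and pericytes 0.106 ± 0.00926% and microglia 0.111 ± 0.00358%. The library values overlapped between inhibitory neurons and oligodendrocyte precursors. Those of oligodendrocytes overlapped with astrocytes and with endothelial cells and pericytes. Microglia also overlapped with astrocytes and with endothelial cells and pericytes, and these classes overlapped with each other. The number of molecules per nucleus had another order, with 5.75 ± 0.508 UMIs of these genes per excitatory nucleus, 4.57 ± 0.269 per inhibitory nucleus, 2.47 ± 0.256 per astrocyte, 2.09 ± 0.143 per oligodendrocyte precursor, 1.73 ± 0.141 per endothelial cell or pericyte, 1.38 ± 0.0873 per oligodendrocyte and 1.14 ± 0.0671 per microglial nucleus. PV-like nuclei, a subset of the inhibitory class, had 6.04 ± 0.555. Glial nuclei had fewer UMIs in all, with medians of 1220 to 1416 per oligodendrocyte and 880 to 1032 per microglial nucleus, against 7259 to 8800 per excitatory neuron. A larger share in small transcriptomes and a larger amount per cell are thus not the same measurement.

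**Figure D2:**
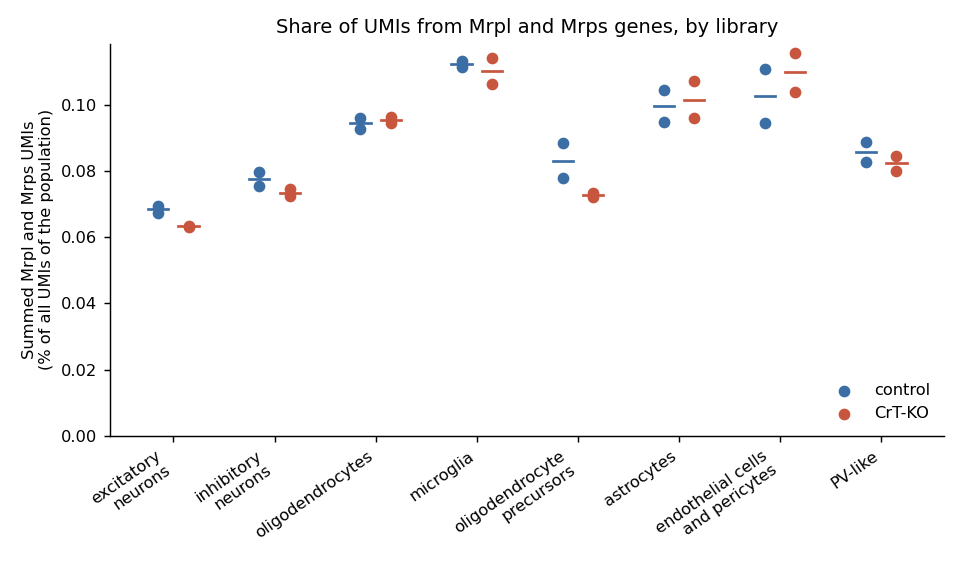
Percent of UMIs on the mitochondrial ribosomal protein genes in each library for 7 cell classes and for PV-like nuclei, controls in blue and CrT-KO in red, with a dash at the mean of each genotype. Microglia (mean 0.111%) stood above excitatory neurons (mean 0.0658%), and the genotypes did not overlap in excitatory neurons, inhibitory neurons and oligodendrocyte precursors.

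Which genes differed between cell types was tested on UMI sums per library, with the library as a block, all genes in 1 fit per pair of cell types, and TMM scaling, which sets the bulk of genes to no change. A gene was called at an adjusted p under 0.1 (edgeR quasi-likelihood test). Against excitatory neurons, 22 of 75 members tested were higher and 3 lower in inhibitory neurons, where 30.9% of all genes were called higher and 29.5% lower. Oligodendrocytes had 30 of 74 higher and 8 lower (all genes 36.3% and 38.7%), and microglia 19 of 74 higher and 10 lower (31.2% and 37.3%). The share called higher, 29.3%, 40.5% and 25.7% of the members tested, was near that of all genes, while the share called lower, 4%, 10.8% and 13.5%, was below it. The median log2 difference was 0.127 for the members and 0.0166 for all genes in inhibitory neurons, 0.282 and -0.0209 in oligodendrocytes, and 0.261 and -0.109 in microglia. When libraries were scaled to their total UMIs instead, the median of all genes itself was 0.148, 0.316 and 0.651, and the members called were 43 higher and 2 lower, 48 and 0, and 50 and 1. In microglial and excitatory nuclei with at least 1000 UMIs, 9 members were higher and 9 lower, with a median of -0.00225.

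Calls in glia differed with gene length, for the members and for all genes. In oligodendrocytes, 23 of 50 members under 10 kb were higher and 4 lower (median log2 difference 0.494), against 7 higher and 4 lower of the 24 longer ones (0.0988). Of all genes under 10 kb, 38.8% were higher and 20.6% lower there (0.280), and of the longer genes 35.7% and 42.8% (-0.0967). Microglia showed 17 higher and 4 lower among the short members (0.396) and 2 higher and 6 lower among the longer ones (-0.152). For all genes in microglia these were 34.4% higher and 16.3% lower among the short (0.346) and 30.5% and 42.1% among the longer ones (-0.205). In inhibitory neurons 11 of 51 short members were higher and 2 lower (0.120), against 11 higher and 1 lower of the 24 longer ones (0.139). For all genes there these were 22% higher and 16.9% lower among the short (0.0558) and 32.9% and 32.3% among the longer ones (0.00634).

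Across all 3 contrasts, which share their excitatory sums, 5 members were called higher: Mrpl10, Mrpl52, Mrpl43, Mrps28 and Mrpl33. This was 6.76% of the 74 members tested in all 3, where 8.06% of all genes were called higher. Mrpl10 codes for the large subunit protein that holds the stalk where translation factors dock. In the libraries control 1, control 2, CrT-KO 1 and CrT-KO 2 its levels were 6.45, 6.37, 6.60 and 5.41 CPM in excitatory neurons, 8.27, 8.21, 9.11 and 8.98 in inhibitory neurons, 18.9, 24.5, 21.1 and 26.9 in oligodendrocytes, and 14.6, 21.4, 27.8 and 25.7 in microglia. The 3 other classes thus lay above excitatory neurons in every library. Its log2 difference was 1.55 in oligodendrocytes (SE 0.155, adjusted p = 7.13e-10), 1.11 in microglia, from 7 to 17 UMIs per library, and 0.34 in inhibitory neurons. Mrpl52 stood at 6.58, 5.79, 5.22 and 5.41 CPM among excitatory and at 11.2, 11.0, 9.02 and 11.9 CPM among inhibitory neurons, with no overlap (log2 difference 0.77, SE 0.0979, adjusted p = 3.85e-06). Mrps28, whose product is a bacterial S1 relative on the small subunit, had excitatory levels of 32.8, 28.1, 29.0 and 26.9 CPM and oligodendrocyte levels of 53.9, 61.6, 69.0 and 60.0 CPM, a log2 difference of 0.73. At 121.773 kb it was the longest of the 5, so that higher levels were not limited to short genes. For Mrpl43 in inhibitory neurons (log2 difference 0.26, adjusted p = 0.0729) the call was lost without control 1 (0.24), without CrT-KO 1 (0.22) or without CrT-KO 2 (0.19). Its microglial difference of 1.03 was 0.50 (adjusted p = 0.324) in nuclei with at least 1000 UMIs. Mrpl33, a small protein of the large subunit, had log2 differences of 0.28 in inhibitory neurons, a call lost without CrT-KO 1 (0.16, adjusted p = 0.159), of 0.67 in oligodendrocytes and of 0.43 in microglia (adjusted p = 0.0751, lost without control 1 at 0.32 and without control 2 at 0.17).

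Mrpl48 and Mrpl16 were called lower in all 3 contrasts, 2.7% of the members tested, where 15.2% of all genes were. Mrpl48 levels were 59.5, 58.7, 53.5 and 53.3 CPM among excitatory and 39.6, 38.2, 38.3 and 36.4 CPM among inhibitory neurons, and the 2 classes did not overlap (log2 difference -0.69, SE 0.0439, adjusted p = 6.18e-10). In oligodendrocytes its levels of 65.7, 59.3, 50.3 and 46.0 CPM overlapped those of excitatory neurons. The call there (-0.36, SE 0.0859, adjusted p = 0.000506) rested on TMM, and with library totals alone the difference was -0.026 (adjusted p = 0.794). Microglia had 54.4, 27.5, 31.1 and 31.3 CPM, of which the first, from control 1, lay within the excitatory range (log2 difference -1.44, SE 0.151, adjusted p = 3.63e-15). Mrpl16, next to the peptidyl transferase centre of the large subunit, had smaller differences, -0.30, -0.61 and -0.79. With library totals alone they were -0.17 (adjusted p = 0.198), -0.27 and -0.029. In inhibitory neurons the Mrpl16 call was lost without control 2 (-0.26) or CrT-KO 1 (-0.25), in oligodendrocytes without control 2 (-0.38), and in microglia without control 1 (-0.61) or CrT-KO 2 (-0.82).

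**Figure D3:**
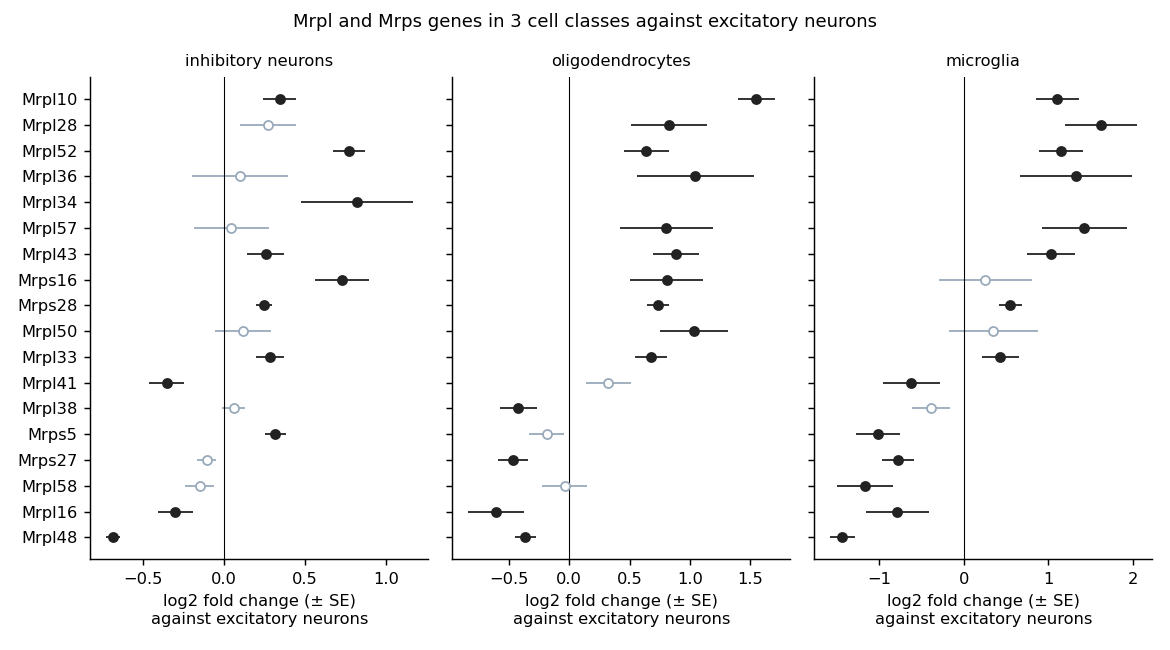
Log2 difference from excitatory neurons, with its SE, for 18 members in inhibitory neurons, oligodendrocytes and microglia (edgeR, TMM, 4 libraries), filled where called and open where not. Mrpl10 stood highest in oligodendrocytes (1.55) and Mrpl48 lowest in microglia (-1.44).

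The members with the greatest called differences were then taken in each class. In inhibitory neurons these were Mrpl34 (0.82, SE 0.346, adjusted p = 0.0552), which lost its call without control 1 (0.36, adjusted p = 0.512), Mrpl52, and Mrps16 of the small subunit (0.73, SE 0.168, adjusted p = 0.00149) on the higher side, with Mrpl48, Mrpl41 (-0.36, SE 0.108, adjusted p = 0.0104) and Mrpl16 on the lower side. In oligodendrocytes Mrpl50 followed Mrpl10 (1.04, SE 0.281, adjusted p = 0.00186), as did Mrpl36 (1.04, SE 0.485, adjusted p = 0.0567), whose call was lost without control 1 (0.91), control 2 (0.88) or CrT-KO 2 (0.84). Mrps27, an RNA-binding protein of the small subunit, was called lower there (-0.47, SE 0.125, adjusted p = 0.00168), but not with library totals alone (-0.13, adjusted p = 0.364), and the Mrpl38 call (-0.42, SE 0.155, adjusted p = 0.0181) was lost without control 1 (-0.28) and with library totals (-0.083). In microglia Mrpl28 had 11, 4, 8 and 0 UMIs in control 1, control 2, CrT-KO 1 and CrT-KO 2 (log2 difference 1.63, SE 0.425, adjusted p = 0.000468), and Mrpl57 had 3, 3, 2 and 6 (1.43, adjusted p = 0.0098), a call lost without CrT-KO 2 (adjusted p = 0.161). Mrpl36 rested on 2, 5, 0 and 1 UMIs (1.33, adjusted p = 0.0732, lost without control 1 at 1.16 and without control 2 at 0.42). Mrpl58, a peptidyl-tRNA hydrolase built into the large subunit, had 9, 4, 3 and 1 microglial UMIs (-1.17, adjusted p = 0.00151) and Mrps5 9, 9, 4 and 6 (-1.01, adjusted p = 0.000442), and neither was called with library totals alone (adjusted p = 0.313 and 0.427).

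Transcripts of other cell types could be measured in each class. The excitatory marker list made up 0.711% of UMIs in excitatory neurons, 0.211% in inhibitory neurons, 0.104% in oligodendrocytes and 0.148% in microglia, while the microglial list made up 1.88% in microglia and 0.00702% in excitatory neurons. The part of neuronal RNA in the glial levels was not tested. The 13 mitochondrially encoded genes, whose RNA does not arise in the nucleus, took 0.0269% of UMIs in excitatory neurons, 0.151% in oligodendrocytes and 0.749% in microglia.

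PV-like nuclei had 0.0839 ± 0.00363% of their UMIs on the 78 genes, against 0.0749% in SST-like, 0.0746% in VIP-like, 0.0737% in LAMP5-like and 0.0696% in medium spiny neuron-like nuclei. Compared with all other inhibitory nuclei, 9 of 66 members tested were called higher and 2 lower (13.6% and 3.03%, against 26.8% and 27.8% of all genes), with a median log2 difference of 0.0993 against -0.00391, which was 0.0451 without control 1 and 0.170 without CrT-KO 1. Mrps35, a mitochondria-specific protein of the small subunit, had 30.5, 22.2, 29.0 and 27.7 CPM in PV-like nuclei of control 1, control 2, CrT-KO 1 and CrT-KO 2, against means of 10.7 to 15.3 CPM in the 4 other inhibitory groups (log2 difference 0.96, SE 0.135, adjusted p = 2.52e-06). Mrps36, of the 2-oxoglutarate dehydrogenase complex, had 19.7, 27.1, 17.1 and 14.1 CPM against means of 9.26 to 10.1 CPM (0.84, SE 0.161, adjusted p = 0.000117). Mrpl42 had 29.6, 26.2, 28.6 and 27.2 CPM against means of 12.3 to 19.6 CPM (0.76, SE 0.118, adjusted p = 9.79e-06). All PV-like libraries were above those means for these 3 genes. The 2 lower genes were Mrpl52 (-0.53, SE 0.169, adjusted p = 0.0124; 0.196 in DESeq2) and Mrpl27 (-0.49, SE 0.200, adjusted p = 0.0454), the latter lost without control 2 (-0.37) or CrT-KO 2 (-0.31). Nuclear genes for respiratory chain subunits, whose products work beside the mitochondrially translated ones, were called higher in PV-like nuclei for 40 of 67 and lower for 0, with a median of 0.430. Their list includes Cox6a2, which was also among the 10 markers used to name PV-like nuclei. Of 14 mitochondrial translation factors, 8 were higher and 0 lower (0.253). Mitochondrially encoded genes went the other way, with 0 of 11 higher and 9 lower (-0.388). How many nuclei of the first cluster of 469 led by these transcripts stayed in the inhibitory class was not counted. Their part in this difference was not tested.

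Between excitatory and inhibitory neurons, the respiratory chain genes were higher in inhibitory neurons for 57 of 78 (73.1%) and lower for 0 (median 0.316). Cytosolic ribosomal protein genes were higher for 19 of 78 (24.4%) and lower for 3, where 30.9% of all genes were called higher. In oligodendrocytes the cytosolic ribosomal protein genes were higher for 50 of 79 (63.3%, all genes 36.3%, median 0.687). In microglia they were higher for 59 of 78 (75.6%, all genes 31.2%, median 1.28), with 0 lower in both. The mitochondrial ribosomal protein genes, at medians of 0.282 and 0.261, lay below them in both glial classes, with no test of the difference. The microglial median of these genes was 0.134 without control 2 and 0.153 without CrT-KO 2.

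The main question of the design was whether loss of the transporter altered these genes in any cell type. Members lower in CrT-KO were more numerous than members higher in neurons, but no member passed the edgeR test without a block in any population. In excitatory neurons the 78 genes took 0.0695% and 0.0672% of UMIs in the control libraries and 0.0630% and 0.0634% in the CrT-KO libraries, a difference of -7.50% with no overlap. When libraries were scaled to their total UMIs there, without TMM, the median log2 change was -0.125 for the members and -0.0543 for all genes. In inhibitory neurons the shares were 0.0797% and 0.0754% against 0.0744% and 0.0723% (-5.41%), again without overlap. Within the inhibitory class, the shares of SST-like nuclei (-8.61%), LAMP5-like nuclei (-7.41%) and medium spiny neuron-like nuclei (-4.33%) did not overlap between genotypes either. Those of VIP-like nuclei (-4.85%) and of PV-like nuclei (-3.81%), at 0.0886% and 0.0825% against 0.0846% and 0.0800%, overlapped. With 2 libraries per group the smallest two-sided p that an exact permutation test over libraries can give is 0.333, and none was used. Without the 5 members with the most UMIs, a choice made after seeing the counts, the differences were -8.69% and -5.35%. In oligodendrocytes, control shares of 0.0958% and 0.0928% stood against CrT-KO shares of 0.0945% and 0.0963%, and these overlapped, as did those of microglia. Oligodendrocyte precursors had 0.0883% and 0.0778% against 0.0721% and 0.0733% (-12.5%, no overlap), from 413 and 412 against 343 and 222 UMIs. The 7 members with enough counts to be tested there had a median log2 change of 0.0152 after TMM, with 4 positive and 3 negative.

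None of the 76 members tested in all named nuclei was called between genotypes, where 0.027% of all genes were (edgeR, adjusted p under 0.1). Excitatory neurons gave 0 of 76 (all genes 0.296%), inhibitory neurons 0 of 74 (0.0407%), oligodendrocytes 0 of 54 (0.0328%), microglia 0 of 22 (0.0412%), oligodendrocyte precursors 0 of 7 (0.0344%), astrocytes 0 of 9 (0.0198%) and PV-like nuclei 0 of 56 (0.064%). DESeq2 called 0 as well in each of these populations. At an unadjusted p under 0.05 in edgeR there were 2 members in all named nuclei (2.63%, all genes 6.96%). Excitatory neurons had 1 (1.32%, all genes 8.86%), inhibitory neurons 1 (1.35%, all genes 5.12%) and oligodendrocytes 1 (1.85%, all genes 6.57%). Microglia had 2 (9.09%, all genes 5.68%) and PV-like nuclei 2 (3.57%, all genes 5.38%). Precursors and astrocytes had 0 (all genes 5.25% and 4.61%). The excitatory count was 6 without control 2, 3 without CrT-KO 2 and 0 without control 1. No member had enough counts to be tested in endothelial cells and pericytes.

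Direction was uneven in neurons. In excitatory neurons 55 of 76 members had a negative log2 change (72.4%, all genes 51.4%), with a median of -0.0752 against -0.00516 over all genes. Leaving out 1 library moved this median to -0.0433 without CrT-KO 1 and to -0.113 without CrT-KO 2, and the negative members to 46 without control 2. In inhibitory neurons 49 of 74 were negative, at a median of -0.0931 against -0.00359. Oligodendrocytes had 25 of 54 negative and a median of 0.0462, and PV-like nuclei 31 of 56 and -0.0439. Genes whose libraries did not overlap were counted on CPM after TMM. In excitatory neurons, 22 members had both CrT-KO libraries below both controls and 2 above (28.9% and 2.63%, against 20.5% and 18.5% of all genes). The corresponding counts were 25 below and 8 above in inhibitory neurons (33.8% and 10.8%, all genes 17.3% and 16%), 6 and 12 in oligodendrocytes (11.1% and 22.2%, all genes 18.4% in each direction), 17 and 9 in PV-like nuclei (30.4% and 16.1%, all genes 17.8% and 16.6%), and 22 and 3 in all named nuclei (28.9% and 3.95%, all genes 19.3% and 17.4%). Small subunit genes had a median of -0.110 in excitatory neurons and large subunit genes one of -0.0557.

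Gene length moved with genotype as well. In excitatory neurons the 2700 genes under 10 kb had a median log2 change of -0.0636, and 60.0% of them were negative, whereas the 4659 genes above 50 kb had a median of 0.0185. The 52 members under 10 kb had a median of -0.116 with 36 negative, the 14 between 10 and 20 kb one of -0.0681 (all genes of that length -0.0204), and the 6 above 50 kb one of -0.0563. In inhibitory neurons the members under 10 kb lay at -0.0938, against -0.0733 for all genes of that length. The longer inhibitory members lay at -0.126 between 10 and 20 kb (all genes -0.0142), at -0.0752 between 20 and 50 kb (-0.00376, 4 members) and at -0.0668 above 50 kb (0.0139, 6 members). The part of length in the lower share was not tested beyond these values.

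**Figure D4:**
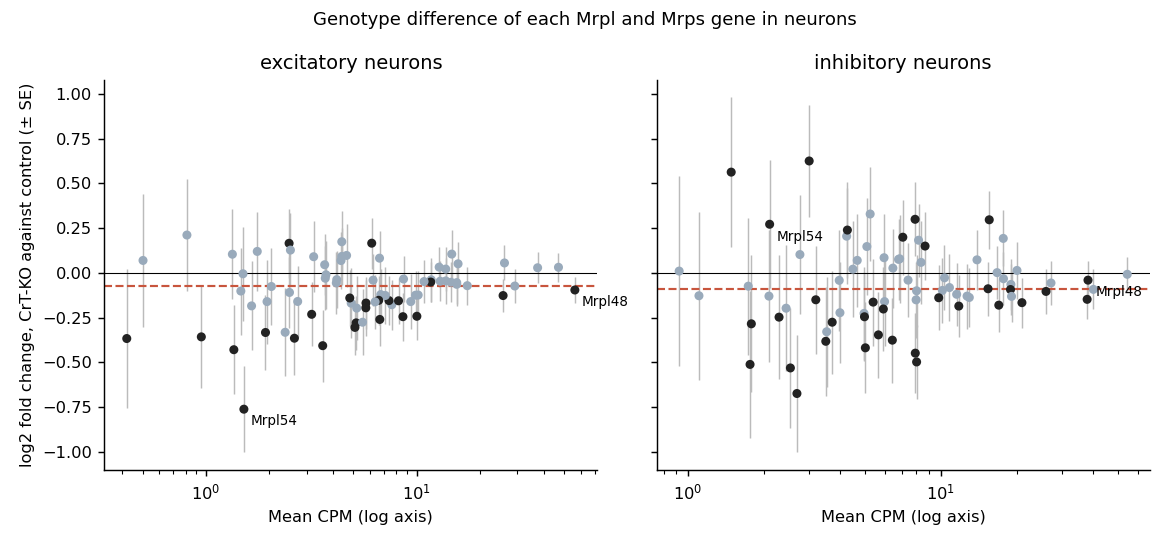
Log2 change, CrT-KO minus control, with its SE, of each member against its mean CPM in excitatory and in inhibitory neurons, dark where the libraries of the 2 genotypes did not overlap, with a dashed line at the median of the members (-0.0752 and -0.0931). Most points lie below 0, and no member passed the test.

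Mrpl54, a mitochondria-specific protein of the large subunit, had the smallest adjusted p among the members in excitatory neurons. Its control libraries held 68 and 57 UMIs and its CrT-KO libraries 45 and 32. After TMM, as for all CPM compared between genotypes, this was 2.07 and 1.74 against 1.18 and 1.06 CPM, without overlap. The log2 change was -0.76 (SE 0.240, adjusted p = 0.330 in edgeR). Mrps34, a small subunit protein, had 1.71 and 1.41 CPM against 1.15 and 1.16 (-0.43, SE 0.248), and Mrpl30 4.82 and 3.36 against 3.32 and 2.82 (-0.41, SE 0.202). On the other side, Mrpl23, at the exit of the peptide tunnel, had 5.61 and 5.90 against 6.11 and 6.83 CPM (0.17, SE 0.143), and Mrpl46, also of the large subunit, 2.44 and 2.23 against 2.56 and 2.68 (0.17, SE 0.193). Mrpl48, with the most counts, had a log2 change of -0.10 (SE 0.0742).

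In inhibitory neurons Mrps11, of the small subunit platform, had control levels of 2.53 and 2.22 CPM and CrT-KO levels of 3.78 and 3.52 CPM (0.63, SE 0.314, adjusted p = 0.983). Mrpl9 of the large subunit had 7.82 and 6.35 against 8.40 and 9.06 CPM (0.30, SE 0.207). Mrps18b had 3.52 and 3.13 against 2.12 and 2.01 CPM (-0.68, SE 0.329), and Mrpl28 3.30 and 2.72 against 2.12 and 2.01 (-0.53, SE 0.337). The 2 other genes with the largest differences were Mrpl57 (0.56, SE 0.418), whose libraries in each control held 1.21 CPM, and Mrps34 (-0.51, SE 0.411). These 6 genes did not overlap between genotypes, and none passed the test. In oligodendrocytes Mrpl22, which lines the peptide tunnel, had 3.58 and 4.55 against 8.11 and 7.44 CPM (0.90, SE 0.432, adjusted p = 0.745), and Mrpl9 4.77 and 6.83 against 9.84 and 10.9 (0.80, SE 0.383). Mrpl43 had 15.5 and 14.6 against 7.53 and 11.4 CPM there (-0.66, SE 0.332). Also without overlap were Mrpl58 (0.61, SE 0.331), Mrpl30 (-0.53, SE 0.404) and Mrpl52 (-0.40, SE 0.332). In PV-like nuclei Mrps16 was counted with 18 and 13 UMIs among controls, against 5 and 3 among CrT-KO. The log2 change was -1.92 (SE 0.536, adjusted p = 0.375 in edgeR).

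Whether the genotype effect differed between inhibitory and excitatory neurons was tested as an interaction. It was called for 0 of 76 members and for 0.0863% of all genes. The unadjusted p was under 0.05 in edgeR for 6 of the 76 members and for 899 of 13913 genes. The smallest adjusted p was 0.688, for Mrps11 (difference of log2 changes 0.93, SE 0.330), and Mrpl54 had a difference of 1.02 (SE 0.386, adjusted p = 0.718).

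Genes around the mitochondrial ribosome were read from the same fits, and 0 of them were called between genotypes in any population. In excitatory neurons the medians were -0.226 for 5 ribosome subunits named outside the Mrpl and Mrps rule, -0.117 for 24 assembly factors, -0.112 for 15 mitochondrial translation factors, -0.0545 for 17 mitochondrial aminoacyl-tRNA synthetases, -0.133 for 14 genes of mitochondrial transcription and RNA processing, -0.0812 for 77 respiratory chain subunits and -0.0897 for 13 mitochondrially encoded genes. Cytosolic ribosomal protein genes had medians of -0.158 over 81 genes in excitatory and -0.253 over 69 in inhibitory neurons. Their summed share in excitatory neurons was 0.0277% and 0.0264% for controls, against 0.0246% and 0.0220% for CrT-KO. Their medians lay further below 0 than those of the mitochondrial ribosomal protein genes in both neuronal classes, with no test of the difference.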

How the data were processed

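Single-nucleus RNA was measured in 4 cortex libraries (2 control, 2 CrT-KO) with a droplet 3′ method. The deposited values are raw UMI counts per gene and nucleus, which the authors made with Cell Ranger 3.1.0 against a GRCm38 pre-mRNA reference, so that intronic reads count. Nuclei were clustered with scanpy 1.11.5 and named from markers, doublets were removed with Scrublet, and 96 barcodes occurred in more than 1 library. Cell names were rebuilt and may differ from the study's. The study tested nuclei by rank sums; here counts were summed per library and population and tested with edgeR 4.0.16 (quasi-likelihood, TMM, filterByExpr, Benjamini-Hochberg over all genes, threshold 0.1), tested first on simulated data. DESeq2 1.42.0, no TMM, no filter, doublets kept, nuclei of at least 1000 UMIs, a replicate block, rank sums and leaving out each library were alternatives. CPM by cell type or per kb and summed shares take the UMI total of the population as the base. CPM compared between genotypes, and the counts of genes without overlap, take the TMM-scaled total of the genes tested instead. Fold changes are after TMM, and SE is the log2 change divided by the square root of F. Intervals cover the spread between libraries only. Members were named by rule: any called between genotypes, the 3 largest non-overlapping changes each way in excitatory neurons, inhibitory neurons and oligodendrocytes, the 5 highest per kb and by UMIs, those at 0, the 3 largest calls each way per cell type contrast, and those called in all 3 contrasts; Mrps16 in PV-like nuclei, Mrpl48 between genotypes and Mrps6 were added after their values were seen. Members and gene lists were chosen with earlier results of these data known. Gene bodies are from GENCODE vM21 and promoters from RefSeq.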

Additional observations from a re-analysis of the deposited data

How the results depend on the processing

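Among the single members named by rule no alternative reversed a called direction. Between genotypes there were 17 such results, none called in the main fit, and 164 of their 165 values kept that side of the threshold. Mrps16 in PV-like nuclei and Mrpl48 between genotypes were not among these 17. Of 380 values between cell types 330 kept their side of the threshold and 50 fell short of it. The labels tie equal replicate numbers to no shared litter or day, and with 2 pairs the data do not settle whether they pair animals (correlation of deviations 0.318 for equal numbers, and by construction -0.318 for crossed ones). With a replicate block 1 member was called in excitatory neurons (Mrpl54, adjusted p = 0.0477) and 1 in PV-like nuclei (Mrps16, adjusted p = 0.0807), while the genes called in excitatory neurons went from 41 to 847. A rank-sum test over nuclei called 1 of 16 members in excitatory neurons, Mrpl48, and 897 of 6490 genes. With no filter the median genotype change was -0.0417 in oligodendrocytes, -0.149 in precursors and 0.00609 in PV-like nuclei, and with doublets kept -0.0726 in microglia and 0.188 in precursors. Leaving out 1 library each gave medians of -0.342 to 0.125 in precursors, -0.198 to -0.0113 in astrocytes and -0.0295 to 0.0503 in oligodendrocytes, and of -0.0883 to -0.0240 in all named nuclei (the latter without CrT-KO 1). It gave 14 to 20 members higher in inhibitory than excitatory neurons (14 without CrT-KO 1), 5 to 7 lower in oligodendrocytes and 1 to 3 lower in PV-like nuclei, and 0 to 1 pathway genes called in all named nuclei. Between cell types, scaling to library totals gave 43 members higher in inhibitory neurons, 48 higher and 0 lower in oligodendrocytes and 50 higher and 1 lower in microglia; DESeq2 gave 11 higher in inhibitory neurons and 4 higher and 0 lower in PV-like nuclei; nuclei of at least 1000 UMIs gave 9 higher in microglia. Genes called in excitatory neurons numbered 1 without CrT-KO 1 and 1 without CrT-KO 2, 11 with no filter, 18 with doublets kept, 26 without TMM and 77 with DESeq2. The causes were not tested. With 2 animals per genotype and few UMIs per member in glia, small changes were not detectable at this depth.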
